A study of Mus musculus with 16 samples.

Results

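The genes described here are 36 endothelial and vascular genes, measured in whole kidneys of 16 mouse pups aged 7 days. They were picked by name from a list of vascular genes, and each is represented by its brightest probe set. All 36 were found among the 18194 genes named on the array, 1 of them (Gpr116) under its current name Adgrf5. Of these, 35 were bright enough to test, among 12500 tested genes in all, and Gja5 was not. The 7 wild-type pups were Aqp11+/+ (3 males and 4 females) and the 9 knockout pups Aqp11-/- (5 males and 4 females), littermates from crosses of Aqp11+/- mice that had been made in 129/SvEvBrd and back-crossed to C57/BL6. The strain is labelled C57BL/6J, no pup received a treatment, and each array carried RNA from 1 kidney sample. Aqp11 is a water channel gene whose protein sits in the endoplasmic reticulum. The comparison asks how its loss alters gene expression in the kidney.

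Endothelial cells line the glomerular and peritubular capillaries, the larger vessels and the lymphatics of the kidney. Their growth is driven by VEGF, which signals through Kdr and is bound by the decoy receptor Flt1, and their maturation by angiopoietin 1, which activates the receptor Tie2 (the product of Tek). SoxF and ETS transcription factors direct the expression of many endothelial genes. In the glomerulus, podocytes lie against a fenestrated endothelium and supply it with VEGF. In the kidney of a newborn mouse, glomeruli and capillaries are still forming. The pups here were older, at 7 days, and whether glomeruli still formed at that age was not examined.

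Values are log2 signal after quantile normalization, and a difference is knockout minus wild type on that scale. As a check of the genotype, Aqp11 was at 7.72 to 8.11 (median 7.78) in wild type and at 2.78 to 3.69 (median 2.78) in knockout, where 7 of 9 arrays were at the lowest value allowed (the floor). The 2% trimmed mean of the deposited signal ran from 111 to 236 between arrays, and its log2 value did not separate the genotypes (7.34 ± 0.31, SD, n = 7, against 7.35 ± 0.38, SD, n = 9, exact permutation p = 0.931, two-sided). The ratio of 3' to 5' control probe sets, a measure of RNA integrity, gave -0.34 and -0.32 in log2 for Gapdh (exact permutation p = 0.753). Markers of other kidney cells moved with genotype: all 17 macrophage genes tested rose (list mean 6.62 to 7.40 in wild type and 8.24 to 8.85 in knockout), and 13 of 14 proximal tubule genes fell (11.00 to 11.26 and 9.82 to 10.55). Over all tested genes, 9.37% rose and 8.35% fell. Of 3 tested erythroid genes 1 fell, Slc4a1 (-0.88, SE 0.10, adjusted p = 3.5e-06), which intercalated cells of the collecting duct also express. The mean level of those 3 genes was 6.71 to 7.09 in wild type and 5.93 to 6.73 in knockout, and the part of blood content in the vascular genes was not tested. In whole kidney, fewer cells of a type and less RNA per cell cannot be told apart.

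In the knockout, 6 of the genes fell and none rose. Those that fell were Emcn, Ehd3, Pecam1, Angpt1, Tek and Sox17, by 1.16-fold (Pecam1) to 1.46-fold (Sox17), so none reached 1.5-fold. They make up 17.1% of the 35 tested genes, against 8.35% of all tested genes that were lower in knockout (limma, Benjamini-Hochberg adjusted p under 0.05). None of these calls was made on the deposited values without normalization between arrays, where the differences were -0.20 (Pecam1) to -0.53 (Sox17) and the smallest adjusted p of the 6 was 0.374. Of all tested genes 9.37% were higher, against 0 of the 35. At an unadjusted p under 0.05 there were 12 of the 35, against 28.8% of all tested genes, and 11 of the 12 were lower, against 13.8% of all tested genes. Counted in either direction, the share of 17.1% lay beside 17.7% of all tested genes. The median difference over the 35 genes was -0.13, and 27 of them (77.1%) lay below 0, against a median of 0.00 and 49.3% below 0 over all tested genes. For Emcn, Ehd3 and Pecam1, 3 of the 35, every knockout array was below every wild-type array, which held for 2.43% of all tested genes. None of the 35 had every knockout array above every wild-type array, against 2.91% of all tested genes. Of the 26 probe sets of these genes other than the brightest, 24 were tested, of which 3 passed as lower (5.46% of all tested probe sets) and 2 as higher (6.21%).

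**Figure D1:**
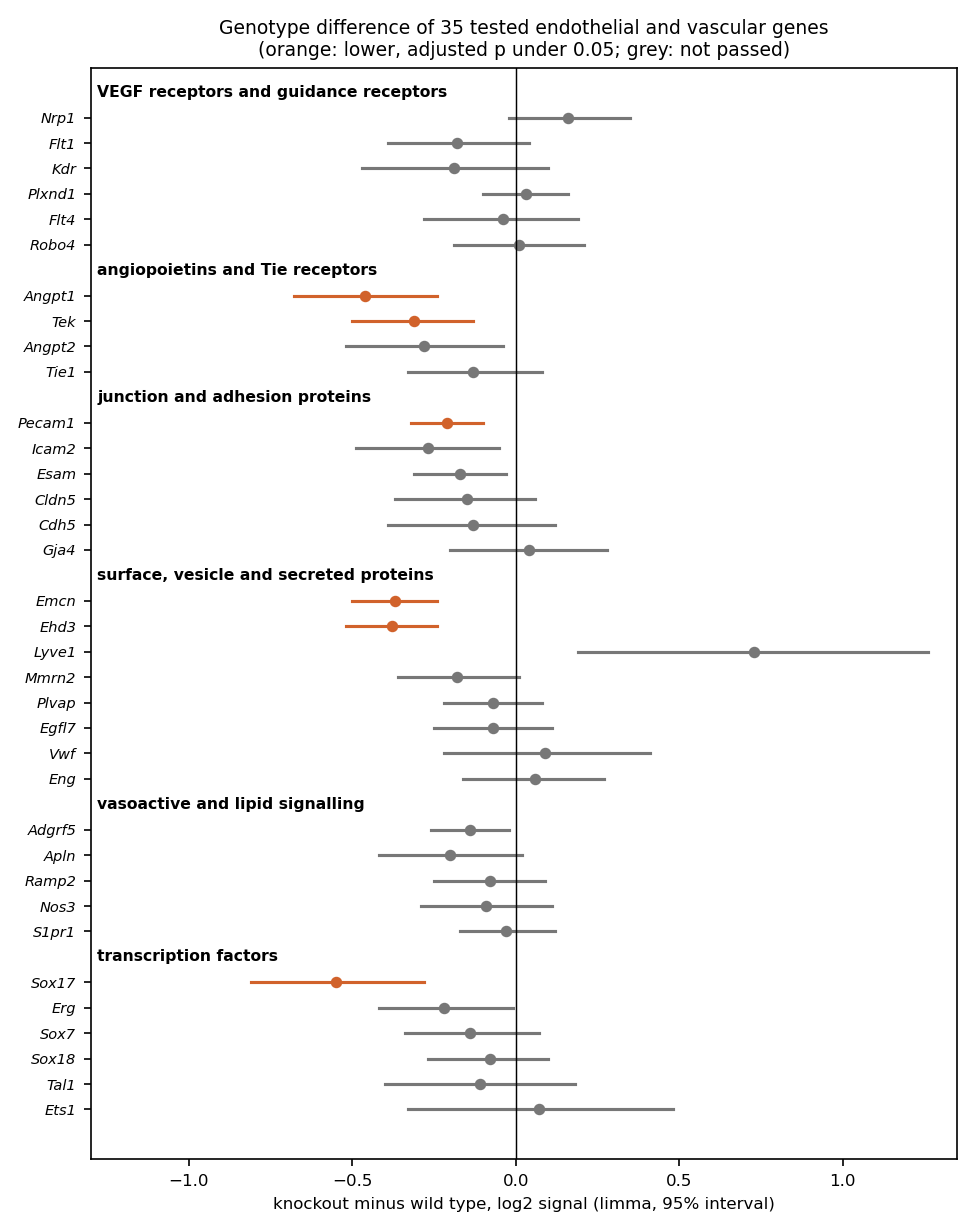
Difference in log2 signal between knockout and wild type for the 35 tested endothelial and vascular genes, with its 95% interval from limma, ordered by role. The 6 genes in orange passed as lower, from -0.21 (Pecam1) to -0.55 (Sox17), and Lyve1 has the widest interval (0.19 to 1.26).

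Of the genes that fell, 3 have a promoter in the RefSeq table of GRCm38.p6 (250 bases before to 50 after the start), and these are shown. Capitals mark exact matches, on either strand, to a chosen ETS, SOX or GATA run, spelled out beside the counts. Other forms of these sites, such as a shorter core, were not searched and are not marked. The Emcn promoter (chr3:137340828-137341127, plus strand) holds the ETS run at -174 and -93 from the start, that of Ehd3 (chr17:73804591-73804890, plus strand) at 5, and that of Tek (chr4:94739039-94739338, plus strand) holds only the GATA run, at 36.
Emcn: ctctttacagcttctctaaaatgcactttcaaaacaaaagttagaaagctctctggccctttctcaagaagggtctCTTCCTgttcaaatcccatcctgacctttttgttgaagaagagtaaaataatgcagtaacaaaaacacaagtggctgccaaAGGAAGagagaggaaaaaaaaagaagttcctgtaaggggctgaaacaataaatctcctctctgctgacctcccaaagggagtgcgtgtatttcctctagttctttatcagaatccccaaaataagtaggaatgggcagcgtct
Ehd3: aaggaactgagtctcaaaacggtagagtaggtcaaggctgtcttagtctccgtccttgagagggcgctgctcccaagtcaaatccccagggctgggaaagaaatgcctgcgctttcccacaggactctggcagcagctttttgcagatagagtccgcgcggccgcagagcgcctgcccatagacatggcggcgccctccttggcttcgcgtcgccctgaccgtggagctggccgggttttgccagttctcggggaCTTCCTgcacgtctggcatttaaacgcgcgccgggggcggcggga
Tek: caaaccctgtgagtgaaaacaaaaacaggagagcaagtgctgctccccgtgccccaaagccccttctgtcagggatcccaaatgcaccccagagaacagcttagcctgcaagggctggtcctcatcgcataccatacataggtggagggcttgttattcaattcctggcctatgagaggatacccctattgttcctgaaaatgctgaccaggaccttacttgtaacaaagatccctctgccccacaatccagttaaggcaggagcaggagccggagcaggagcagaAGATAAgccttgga
Among the 36 genes, 19 were in the table, with 25 promoters. The ETS run searched was AGGAAG, and 14 of these held it (56%), against 35.4% of all 32851 promoters of the table. It was in 2 of 3 promoters of genes that fell and in 12 of 22 of the other genes (54.5%). The SOX run, ACAATG, was found in 1 of the 25 promoters (12.6% of all in the table). The GATA run, AGATAA, was found in 3 of the 25 (11.2% of all in the table). None of these runs contains another. A match is a description of the letters and shows no binding.

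Among the surface, vesicle and secreted proteins, Emcn and Ehd3 fell. Emcn encodes endomucin, a sialomucin of capillary and venous endothelium. Its log2 signal was 10.93 to 11.03 (median 10.96) in wild type and 10.30 to 10.84 (median 10.63) in knockout. Every wild-type array lay above every knockout array, the wild-type pups spanned only a narrow range, and knockout arrays 1-2 and 2-3 were the lowest. The difference was -0.37 (SE 0.06), a 1.29-fold fall (limma adjusted p = 0.000249). Ehd3 encodes an endocytic recycling protein that in the kidney marks glomerular endothelium. It was at 8.83 to 9.14 (median 9.01) in wild type and at 8.46 to 8.78 (median 8.58) in knockout, again without overlap. The fall of 1.3-fold (-0.38, SE 0.07, limma adjusted p = 0.000336) was seen in its other probe set too (-0.32, limma adjusted p = 0.0044 over all tested probe sets). Both genes passed among the brighter arrays alone (limma adjusted p = 0.0256 for Emcn and 0.0493 for Ehd3) and the dimmer arrays alone (0.00679 and 0.0167).

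Podocytes lie in the same glomeruli as the endothelium that Ehd3 marks, and their genes were mixed. Of 10 tested, 4 fell (Clic5, Nphs1, Ptpro and Plce1), or 40% against 8.35% of all tested genes. In the other direction 1 rose (Cd2ap, named after its value was seen), or 10% against 9.37%. The others did not pass: Synpo (0.16), Tcf21 (0.03), Wt1 (-0.06), Podxl (-0.18) and Npnt (-0.33). The podocyte list had a mean log2 signal of 9.35 to 9.59 in wild type and 9.22 to 9.38 in knockout. Nphs1, the gene of the slit diaphragm protein nephrin, was 1.44-fold lower (-0.53, SE 0.09, adjusted p = 0.000284). The part of podocytes in the fall of Ehd3 was not tested.

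The other 6 genes of this group did not pass. Plvap, the gene of the diaphragm protein of fenestrated endothelium, was at 10.00 to 10.39 in wild type and 9.95 to 10.30 in knockout, a difference of -0.07 with an interval from -0.22 to 0.08. Eng (0.06), a TGF-beta coreceptor, Egfl7 (-0.07), a secreted regulator of vessel tubes, and the von Willebrand factor gene Vwf (0.09) also had intervals that span 0. Mmrn2, which encodes an endothelial matrix glycoprotein, had a difference of -0.18 in its brightest probe set (adjusted p = 0.2). Another of its probe sets passed as lower (-0.27, limma adjusted p = 0.0099 over all probe sets) and the remaining ones did not.

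Lyve1, the gene of a hyaluronan receptor of lymphatic endothelium that some tissue macrophages also carry, went the other way without passing. It was dim, at 3.29 to 5.27 (median 4.57) in wild type and 4.71 to 5.77 (median 5.30) in knockout. Wild-type arrays 4-1 and 4-2 lay within the knockout range, 5-1 was the lowest, and no knockout array fell below the wild-type mean. The difference of 0.73 (SE 0.26, 1.65-fold) missed the threshold (limma adjusted p = 0.0557). It passed in 9 of 36 other settings. Of 16 fits without 1 array it passed in 3, without wild-type array 4-1 (adjusted p = 0.0265) or 4-2 (0.0294) or knockout array 5-2 (0.0425). It also passed with the mean of its probe sets (0.57, adjusted p = 0.0222), with median centring (0.0409), with array weights (0.0409) and among the brighter arrays alone (0.98, 0.0165). Among the dimmer arrays alone the difference was 0.48 (adjusted p = 0.567). It was 0.20 in males alone (adjusted p = 0.716) and 1.23 in females alone (0.082), and the interaction with sex did not pass (0.455). Its other probe set had 0.41 and did not pass (limma adjusted p = 0.291 over all probe sets). The macrophage genes rose in the same kidneys, among them Mrc1 (1.02, SE 0.08, adjusted p = 7.1e-09) and C1qa (1.73, SE 0.12, adjusted p = 2.17e-09), and their part in the Lyve1 signal was not tested. Flt4, the VEGF receptor of lymphatic endothelium, had a difference of -0.04 (interval -0.28 to 0.19).

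**Figure D2:**
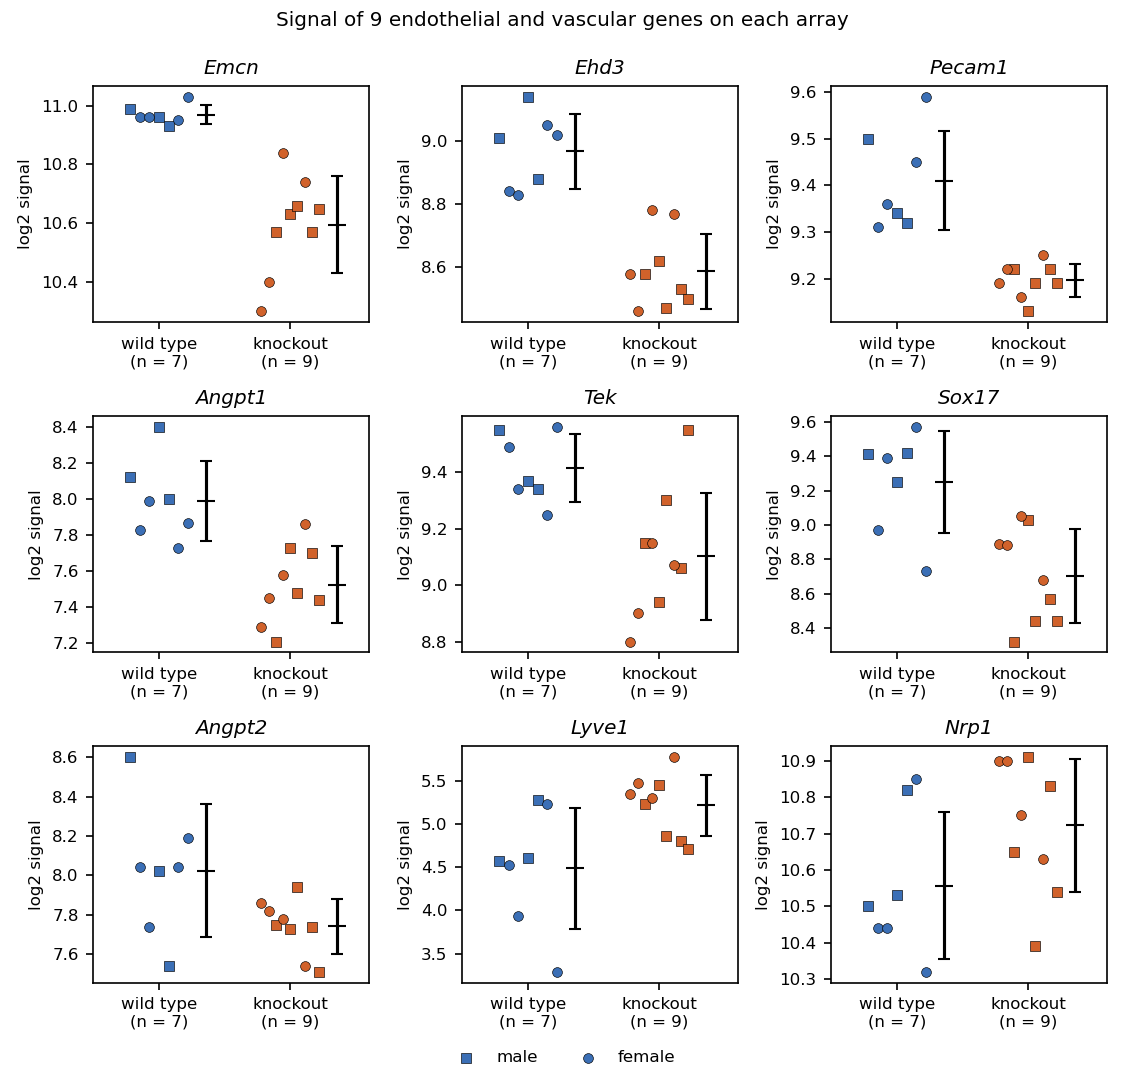
Log2 signal of 9 genes on each array, squares for males and circles for females, with the mean and SD of each genotype beside the points. Emcn, Ehd3 and Pecam1 have no overlap between genotypes, while Angpt1, Tek and Sox17 passed with overlap and Angpt2, Lyve1 and Nrp1 did not pass.

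Of the angiopoietins and their Tie receptors, Angpt1 and Tek fell and all 4 genes had differences below 0 (median -0.30). Angpt1 encodes the activating ligand of Tie2, made by mesenchymal and perivascular cells and podocytes. Its signal was 7.73 to 8.40 (median 7.99) in wild type and 7.21 to 7.86 (median 7.48) in knockout. Knockout arrays 4-3 and 3-3 reached into the wild-type range, and the other 7 lay below every wild-type array. The fall was 1.38-fold (-0.46, SE 0.10, limma adjusted p = 0.00335), and its other probe set fell as well (-0.64, limma adjusted p = 0.005 over all probe sets). Among the dimmer arrays alone the difference was -0.32 and did not pass (adjusted p = 0.197).

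Tek, the gene of the receptor Tie2, was at 9.25 to 9.56 (median 9.37) in wild type and 8.80 to 9.55 (median 9.07) in knockout. Knockout array 5-2 reached the top of the wild-type range and 3-4 lay inside it, while the other 7 were below all wild-type arrays. The difference was -0.31 (SE 0.09, 1.24-fold, limma adjusted p = 0.0183). It was -0.49 among the brighter arrays (adjusted p = 0.00744) and -0.16 among the dimmer ones (adjusted p = 0.462), a contrast that was not itself tested. The call was lost with median centring (adjusted p = 0.0539) and without wild-type array 5-1 and knockout array 1-2 together (-0.25, adjusted p = 0.0579).

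Tie1, an orphan receptor that pairs with Tie2, was at 7.90 to 8.48 (median 8.03) in wild type and 7.68 to 8.27 (median 7.96) in knockout, and its difference of -0.13 (SE 0.10) did not pass (adjusted p = 0.438). Angpt2 encodes the context-dependent antagonist of Tie2, released by endothelium. It was at 7.54 to 8.60 (median 8.04) in wild type and 7.51 to 7.94 (median 7.75) in knockout. The wild-type pups were widely spread, with 4-1 level with the lower knockout arrays. The difference of -0.28 (SE 0.11, adjusted p = 0.0984) did not pass, though it did without wild-type array 4-1 (-0.37, adjusted p = 0.0219). Within an array, Angpt2 minus Angpt1 averaged 0.03 ± 0.38 (SD, n = 7) for wild-type pups and 0.21 ± 0.29 (SD, n = 9) for knockout pups (exact permutation p = 0.304, adjusted p = 0.456 over 12 pairs of genes).

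Among the genes of junction and adhesion proteins, Pecam1 fell. It encodes CD31, an adhesion protein of all endothelium and of platelets and some leukocytes. Its signal was 9.31 to 9.59 (median 9.36) in wild type and 9.13 to 9.25 (median 9.19) in knockout. The knockout pups lay in a narrow range just under the wild-type pups, with no overlap. The fall was small, 1.16-fold (-0.21, SE 0.05, limma adjusted p = 0.00656). It kept its size among the brighter (-0.20) and the dimmer arrays (-0.24), though neither passed alone (adjusted p = 0.111 and 0.0868). The platelet factor gene Pf4 rose in the same kidneys (0.78, SE 0.08, adjusted p = 9.85e-07), as did the macrophage list, and the part of those cells in the Pecam1 signal was not tested. Pf4 was the only one of 3 tested platelet genes to pass, with Itga2b at 0.07 (adjusted p = 0.815) and Gp1bb at 0.42 (adjusted p = 0.399). The mean level of those 3 genes was 5.48 to 6.33 in wild type and 6.15 to 6.78 in knockout.

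Cdh5, the gene of VE-cadherin, the adhesion protein of endothelial adherens junctions, did not pass. It was at 7.14 to 7.91 (median 7.34) in wild type and 6.99 to 7.70 (median 7.30) in knockout, with a difference of -0.13 and an interval from -0.39 to 0.12. Icam2 (-0.27, adjusted p = 0.0821) and Esam (-0.17, adjusted p = 0.0884), both adhesion proteins of endothelial contacts, came closest to the threshold and passed with the brighter and dimmer arrays as a block (0.0336 and 0.0392). Esam also passed without knockout array 4-4 (adjusted p = 0.0256). The claudin gene Cldn5 had a difference of -0.15 over all arrays, -0.43 among the brighter (adjusted p = 0.00602) and 0.07 among the dimmer (adjusted p = 0.722), the contrast itself not being tested. The gap junction gene Gja4 had 0.04 (interval -0.20 to 0.28). Gja5, the arterial gap junction gene, was at the floor on 4 arrays of each genotype and was not tested.

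None of the 6 VEGF and guidance receptor genes passed, and their median difference was -0.02. Kdr, the main signalling receptor of VEGF, was at 8.66 to 9.38 (median 8.75) in wild type and 7.92 to 9.09 (median 8.66) in knockout. Wild-type array 5-1 was above the other wild-type arrays and knockout array 1-2 below the other knockout arrays. The difference of -0.19 (SE 0.14, interval -0.47 to 0.10) did not pass (adjusted p = 0.409). Flt1 had -0.18 (interval -0.39 to 0.04), Plxnd1, a semaphorin receptor, 0.03 (interval -0.10 to 0.16) and Robo4, an endothelial Robo receptor, 0.01 (interval -0.19 to 0.21).

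Nrp1, a coreceptor of VEGF and semaphorins that macrophages and mesenchymal cells also express, depended on the probe set. Its brightest probe set was at 10.32 to 10.85 (median 10.50) in wild type and 10.39 to 10.91 (median 10.75) in knockout, and did not pass (0.16, SE 0.09, adjusted p = 0.237). Its 3 others had differences of 0.28, 0.22 and 0.22, of which the first and one more passed as higher (limma adjusted p = 0.0048 and 0.0239 over all probe sets). The mean of its probe sets rose by 0.22 (adjusted p = 0.00616). With the brightest probe set, the difference was 0.38 among the brighter arrays (adjusted p = 0.00451) and -0.06 among the dimmer (0.817).

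**Figure D3:**
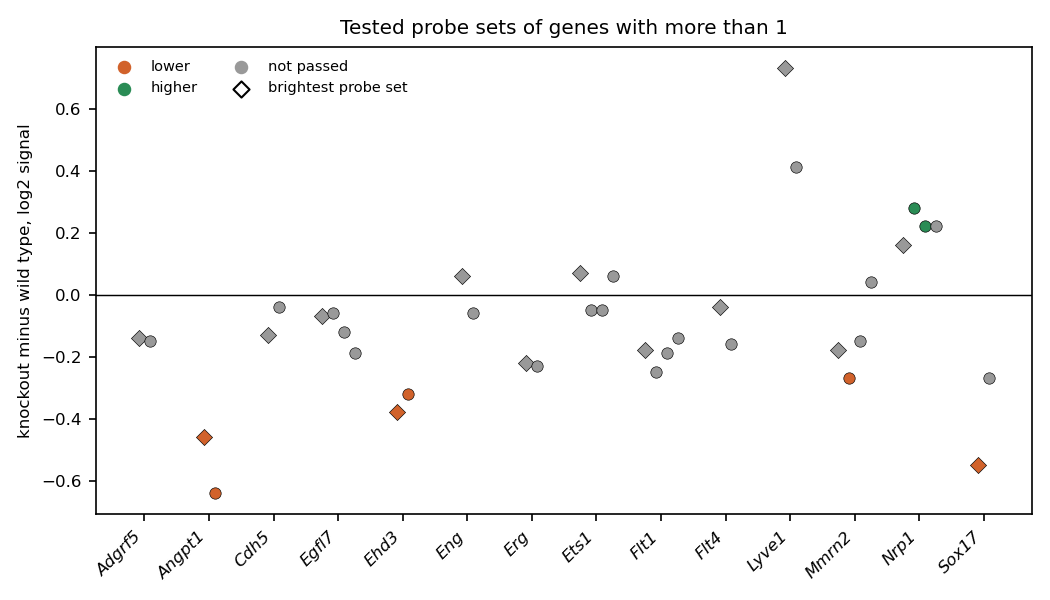
Difference in log2 signal between knockout and wild type for each tested probe set of the genes with more than 1, with diamonds for the brightest. Both probe sets of Angpt1 and of Ehd3 passed as lower, 1 of 2 for Sox17 and 1 of 4 for Mmrn2, and 2 of 4 Nrp1 probe sets passed as higher.

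Of the transcription factors, Sox17 fell and the other 5 did not pass. Sox17, Sox7 and Sox18 form the SoxF family, and Sox17 is most known for arterial endothelium. Its signal was 8.73 to 9.57 (median 9.39) in wild type and 8.32 to 9.05 (median 8.68) in knockout. Wild-type arrays 5-1 and 2-1 lay among the knockout arrays, and the other 5 were above all of them. The fall of 1.46-fold (-0.55, SE 0.13, limma adjusted p = 0.00414) was the largest fall among the 35 genes. The other probe set had -0.27 and did not pass (limma adjusted p = 0.106 over all probe sets). The difference was -0.75 among the dimmer arrays (adjusted p = 0.0138) and -0.29 among the brighter (adjusted p = 0.101).

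Sox7 was at 6.72 to 7.32 (median 6.97) in wild type and 6.59 to 7.18 (median 6.84) in knockout (-0.14, SE 0.10, adjusted p = 0.407), and Sox18 at 8.80 to 9.39 (median 9.29) and 8.76 to 9.36 (median 9.14) (-0.08, SE 0.09, adjusted p = 0.596). The genotypes overlapped almost wholly for both. Sox17 minus Sox18 averaged 0.05 ± 0.42 (SD, n = 7) for wild-type pups and -0.42 ± 0.37 (SD, n = 9) for knockout pups (exact permutation p = 0.0369, adjusted p = 0.079 over the 12 pairs), so an unequal change within the family did not pass. Of 16 repeats that each left out 1 array, this pair passed in 1, that without wild-type array 5-1 (adjusted p = 0.03). The ETS factor genes Erg (-0.22, adjusted p = 0.151) and Ets1 (0.07, adjusted p = 0.859) and the haematopoietic and endothelial factor gene Tal1 (-0.11, adjusted p = 0.664) did not pass.

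Genes of vasoactive and lipid signalling gave no call. The values were -0.14 for Adgrf5, an adhesion receptor, -0.20 for Apln, the apelin gene of sprouting tip cells, -0.09 for Nos3, the endothelial nitric oxide synthase, -0.08 for Ramp2, a subunit of the adrenomedullin receptor, and -0.03 for the sphingosine phosphate receptor gene S1pr1. Adgrf5 was the closest to the threshold (adjusted p = 0.108), with all 9 knockout arrays below the wild-type mean. For S1pr1 the interval ran from -0.17 to 0.12.

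Whether 2 genes of an array changed unequally was tested for 12 pairs by exact permutation of the genotype labels. Only Lyve1 minus Pecam1 passed, with a mean of -4.92 ± 0.76 (SD, n = 7) for wild-type pups and -3.98 ± 0.35 (SD, n = 9) for knockout pups (exact permutation p = 0.00262, adjusted p = 0.0315), and it did so in 8 of 16 repeats that each left out 1 array. Relative to Pecam1, Ehd3 differed by -0.17 and Plvap by 0.15 (adjusted p = 0.0713 for each), and Emcn by -0.16 (adjusted p = 0.079). Cdh5 relative to Pecam1 differed by 0.08 (adjusted p = 0.61). Of the 16 repeats that each left out 1 array, the pair with Pecam1 passed in 2 for Ehd3, 2 for Plvap and 1 for Emcn. Without knockout array 3-2, the pairs of Ehd3 and of Emcn with Pecam1 passed (adjusted p = 0.0305 for each) and so did that of Plvap (0.0354). The pair of Ehd3 also passed without wild-type array 5-1 (0.0302), and that of Plvap without knockout array 2-3 (0.0336).

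The mean log2 signal of the 35 genes was 8.36 to 8.47 on wild-type arrays and 8.24 to 8.34 on knockout arrays. Within each genotype it followed the brightness of the array: Pearson's r with the log2 trimmed mean signal was -0.77 over 7 wild-type arrays (exact permutation p = 0.0409, adjusted p = 0.0409 over both relations) and -0.77 over 9 knockout arrays (exact permutation p = 0.0199, adjusted p = 0.0399). Spearman's rho was -0.71 (exact permutation p = 0.0881) and -0.80 (exact permutation p = 0.0138). Without the 2 arrays farthest from the median brightness, r was -0.30 over 5 wild-type and -0.62 over 7 knockout arrays, so the relation in wild type rests on those arrays. Wild-type array 5-1, the dimmest, held the highest wild-type value for 18 of the 35 genes, and knockout array 1-2, the brightest, held the lowest knockout value for 10. Without both of these arrays 5 genes were lower, Tek being the one lost. With the brighter and dimmer arrays as a block 8 were lower, the 6 named and Esam and Icam2.

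**Figure D4:**
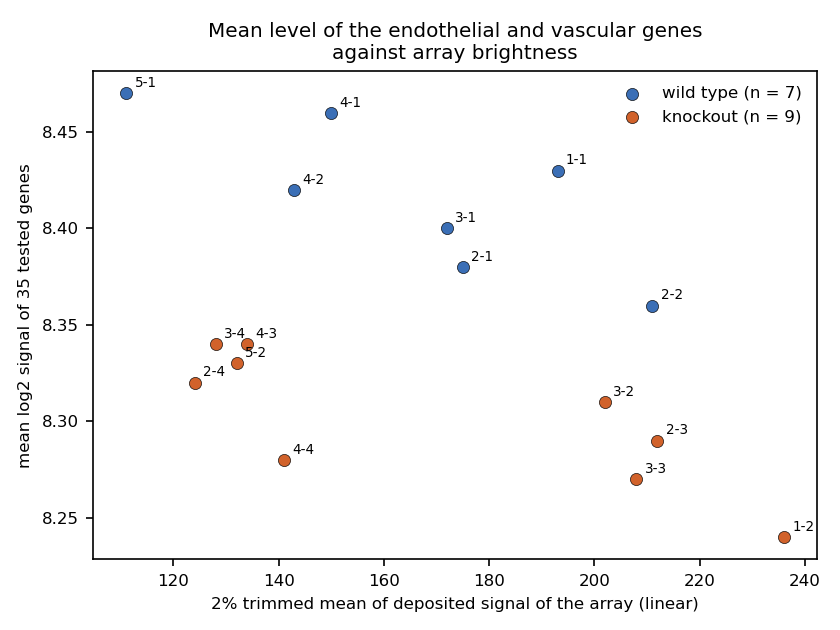
Mean log2 signal of the 35 tested genes on each array against the 2% trimmed mean of the array's deposited signal, with wild type in blue and knockout in orange. Knockout arrays lie from 8.24 to 8.34 and wild-type arrays from 8.36 to 8.47, and both slope down towards brighter arrays.

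Both sexes were in each genotype, and no interaction of genotype and sex passed for any of the 35 genes (limma, Benjamini-Hochberg over all 12500 genes, of which 0% passed). At an unadjusted p under 0.05 there were 7 of the 35 and 10.8% of all genes. Sox17 differed by -0.80 in males alone (adjusted p = 0.0025) and -0.29 in females alone (adjusted p = 0.361), with an interaction of -0.51 (adjusted p = 0.455). Emcn was similar in size in males (-0.34, adjusted p = 0.00402) and females (-0.40, adjusted p = 0.0635). Ehd3 (-0.47) and Angpt1 (-0.66) passed in males alone, Tek (-0.43, adjusted p = 0.0407) in females alone, and Pecam1 in neither.

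Some ligands and partners of these receptors also changed. Of 10 tested genes of VEGF, apelin, adrenomedullin and sphingosine phosphate signalling, 2 rose and 1 fell, with a median of -0.04. The shares were 20% higher and 10% lower, against 9.37% and 8.35% of all tested genes. Vegfa, the ligand of Kdr and Flt1, was at 8.69 to 9.25 (median 8.77) in wild type and 8.14 to 8.91 (median 8.49) in knockout, a fall of 1.31-fold (-0.39, SE 0.12, limma adjusted p = 0.0251), while its other probe set did not pass (-0.26, adjusted p = 0.16). Of genes of cells that also make VEGF, 13 of 14 proximal tubule and 4 of 10 podocyte genes fell. Their part in the fall of Vegfa was not tested. Sphk1, which makes sphingosine phosphate, rose 1.63-fold (adjusted p = 0.000827) and its exporter gene Spns2 1.48-fold (adjusted p = 0.000777). The other probe set of Sphk1 had 0.33 and did not pass (adjusted p = 0.252 over all probe sets).

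Of 26 Notch, BMP, ephrin and guidance genes, 2 rose and 6 fell (median -0.04). The shares were 7.69% higher and 23.1% lower, against 9.37% and 8.35% of all tested genes. Slit3, a ligand of Robo receptors, rose 2.23-fold, from 6.10 to 7.02 in wild type to 7.38 to 7.98 in knockout (adjusted p = 1.23e-06), and the Notch target Heyl rose 1.31-fold (adjusted p = 0.00277). Of the other Heyl probe sets 1 passed as higher (0.54, adjusted p = 0.000719 over all probe sets) and 1 did not pass (0.37, 0.114). Hey1 (0.14), Hey2 (-0.01) and Hes1 (-0.17), also Notch targets, did not pass. Id1, a target of BMP signalling, fell 1.32-fold without overlap (adjusted p = 0.000463). Id3 (-0.14) and Smad7 (-0.03), also BMP targets, did not pass, while Smad6 (-0.23) did. Sema3a (1.34-fold, adjusted p = 0.0114), a repulsive ligand, fell too, while its other tested probe set did not pass (-0.27, adjusted p = 0.179). The remaining falls, named after their values were seen, were those of Smad6, Jag1, Bmp4 and the arterial ephrin gene Efnb2, by 1.13-fold to 1.24-fold. When all probe sets were tested, the only Bmp4 probe set missed the threshold (adjusted p = 0.0556), as did the brightest of Efnb2 (adjusted p = 0.0561), while another of Efnb2 passed (-0.33, adjusted p = 0.0442). The brightest of Jag1 passed (adjusted p = 0.0404) and its others did not (-0.39, adjusted p = 0.0913, and -0.08, 0.73).

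The other endothelial markers were mixed. Of 38 tested, 3 rose and 3 fell, with a median of -0.01 and 20 below 0. Each count was 7.89% of the list, against 9.37% higher and 8.35% lower over all tested genes. The mean log2 signal of the list was slightly higher in knockout, at 7.94 to 8.07 in wild type and 8.03 to 8.16 in knockout. Edn1, the endothelin gene, rose 1.82-fold (5.77 to 6.12 in wild type and 6.54 to 7.30 in knockout, adjusted p = 1.09e-05) and the leukocyte adhesion gene Icam1 1.94-fold (adjusted p = 1.35e-05). Ednrb, an endothelin receptor gene, fell 1.25-fold (adjusted p = 0.00194), and its other probe sets passed as lower too, and Rasgrp3 1.29-fold in its brightest probe set (adjusted p = 0.00379) but not in the other (-0.07, adjusted p = 0.79). Stab1 (0.34) and Ptprb (-0.24), named after their values were seen, were the other calls, and macrophages also express Stab1. None of the 3 Ptprb probe sets passed when all probe sets were tested (adjusted p = 0.0633 for the brightest). Other kidney cells also express Edn1 and Icam1, and whole-kidney values do not assign these rises to a cell type.

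Among mural cell genes 5 of 13 rose and 0 fell (median 0.28). The share that rose was 38.5%, against 9.37% of all tested genes, of which 8.35% fell. Tagln, a smooth muscle actin-binding protein gene, rose 1.65-fold (10.29 to 11.02 in wild type and 11.04 to 11.63 in knockout, adjusted p = 1.39e-05), Acta2 1.20-fold (adjusted p = 0.00436) and Cnn1 1.37-fold (adjusted p = 0.0311). Pdgfb, the endothelial ligand that recruits pericytes, was placed in the same list and rose 1.3-fold (adjusted p = 0.00112). Rgs5, a pericyte gene named after its value was seen, rose 1.22-fold (adjusted p = 0.0318). Fibroblast and matrix genes rose for 6 of 9, or 66.7% against 9.37% of all tested genes. Their mean level was 10.74 to 10.98 in wild type and 10.91 to 11.17 in knockout. Activated fibroblasts also express Acta2 and Tagln.

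**Figure D5:**
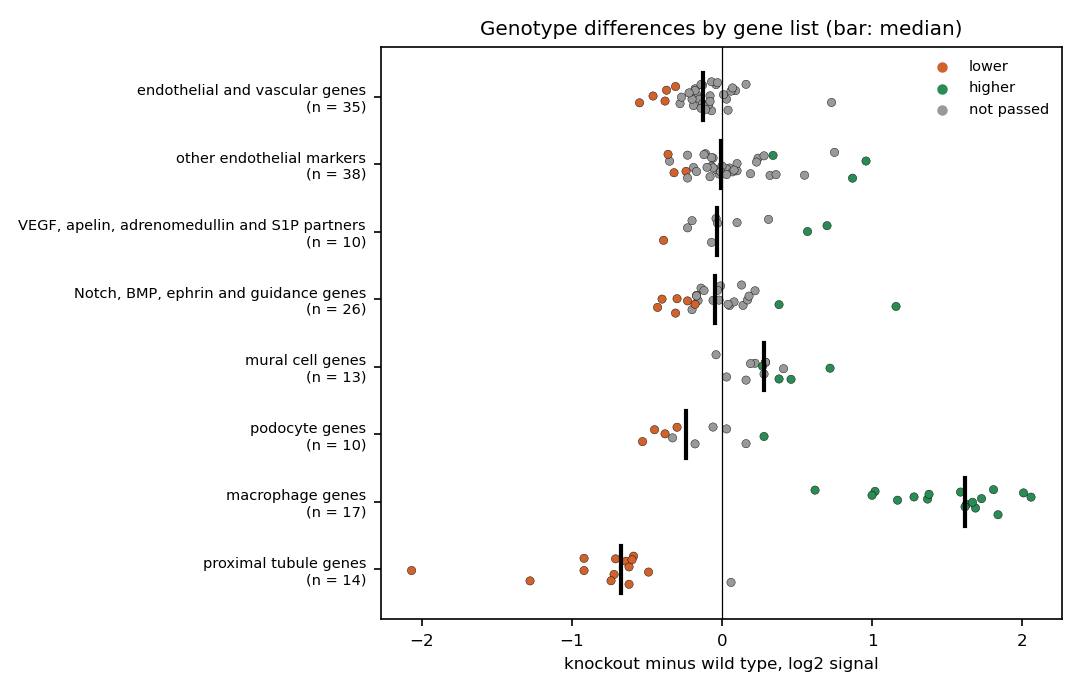
Difference in log2 signal between knockout and wild type for each tested gene of 8 lists, with a bar at each median. The endothelial and vascular genes centre at -0.13, the other endothelial markers at -0.01, mural cell genes at 0.28, macrophage genes at 1.62 and proximal tubule genes at -0.67.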

How the data were processed

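Kidney RNA was measured on 16 Affymetrix arrays, each with 45101 probe sets. The deposited intensity values are linear, and GCOS 1.3 is named in the submitters' processing notes. Whether the authors scaled arrays to each other is not known. Here intensities were quantile normalized, raised to a floor at the 20th percentile (6.89, or 2.78 in log2) and taken to log2, which understates the change of dim genes. Genes were named from the platform annotation, with current symbols and promoters from RefSeq (GRCm38.p6). The array design's build is not given, so coordinates are those of promoters only. The brightest probe set stood for a gene. A gene was tested where 7 or more of 16 arrays exceeded their own 40th percentile.

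Genotypes were compared by limma (version 3.58.1, R 4.3.3, genotype as the only term, moderated variances with a trend) and Benjamini-Hochberg adjustment over all 12500 tested genes at 0.05. Every adjusted p of a gene is from this fit, unless probe sets, a pair of genes or a correlation is named. The probe sets of a gene were fitted over all 27377 tested probe sets. A split of arrays by trimmed mean signal, placed where neighbouring arrays lay farthest apart in log2, gave 4 wild-type and 4 knockout arrays as brighter and 3 and 5 as dimmer. Per-array differences of pairs of genes, and correlations, used exact two-sided permutation, for which 8.74e-05 is the smallest p a comparison of 7 with 9 arrays can give. The genes and lists were chosen with earlier results of these data known, so list counts are descriptions. Named genes are all 36, and of each other list up to 4 with the smallest p among those that passed. Other genes of those lists were named after their values were seen. Figures were drawn with matplotlib 3.10.9. For arrays, the number of pups limits the precision.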

Additional observations from a re-analysis of the deposited data

Results flagged for a closer look

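Each gene's values were examined in each genotype for 1 array far from the others by Dixon's test, in 72 groups of values. It marked 8 of them (11.1%), where chance marks about 1 in 20 of independent groups. The groups come from the same 16 arrays and are not independent, so these shares do not show an excess. Of the 8, 4 were wild-type array 5-1 standing high: Kdr at 9.38 (the others at 8.66 to 8.89), Eng at 9.53 (9.00 to 9.21), Egfl7 at 10.14 (9.57 to 9.74) and Ramp2 at 9.29 (8.89 to 9.05). This array was also the dimmest, with a trimmed mean signal of 111. Knockout array 2-3 stood low for Adgrf5 at 9.73 (9.92 to 10.09) and for Sox18 at 8.76 (9.08 to 9.36). Knockout array 1-2 stood low for Icam2 at 8.03 (8.49 to 8.83), and wild-type array 2-2 stood high for Gja5 at 4.19 (2.78 to 3.38), a gene near the floor.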

How the results depend on the processing

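The comparison was repeated under 37 other settings, of which 1 was chosen after seeing the data (without wild-type array 5-1 and knockout array 1-2). Of 1291 values of the 35 genes, 0 passed in the opposite direction, 20 lost and 22 gained a call, and 43 changed sign without passing. No call was lost in any fit without 1 array. With the deposited scaling 438 genes of all tested changed and 0 of the 35 genes passed as lower, although their differences kept their size (Emcn -0.37, adjusted p = 0.406). The count of genes lower was 1 in females alone and 3 on the dimmer arrays alone, and 6 or 7 in every fit without 1 array, where 0 or 1 were higher. Genes higher numbered 1 with median centring, array weights and the replicate block (also with sex as a term), and 2 with the mean of all probe sets and on the brighter arrays alone. Of all tested genes, 1406 changed with the most variable probe set, 1417 in males alone, 681 in females alone, 1333 on the brighter and 1183 on the dimmer arrays. Pairs of genes that passed numbered 7 with the mean of all probe sets and 5 without wild-type array 5-1 and knockout array 1-2. They numbered 0 without wild-type arrays 2-1 and 2-2, and 0 to 5 in fits without 1 array. They also numbered 0 in males, in females and on the brighter or the dimmer arrays alone. With so few arrays in these sex and brightness subsets, the smallest p of exact permutation is too large for a single pair to pass after adjustment over 12 pairs. The counts of 0 in those subsets thus do not show that the pairs depend on the subset. The fits without 1 array, or without wild-type arrays 2-1 and 2-2, hold enough arrays for a pair to pass. Lyve1 minus Pecam1 was lost in 8 of 16 of the former and in the latter, so its call depends on the arrays kept. No interaction with sex passed in any alternative run. The subsets hold fewer arrays. The cause of the other shifts was not tested.

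The first sample number is shared by arrays of both genotypes, but the labels do not say what it marks, and deviations from the group means correlated above 0.1 in 4 of 13 pairs of arrays with the same number (15 of 50 others). With it as a replicate block, 9 of the 35 genes were lower, the 6 named and Flt1, Angpt2 and Icam2, and Lyve1 was higher. Dim signals limit Gja5 and Lyve1 most.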
